A study of Mus musculus with 14 samples.

Results

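Complement is a cascade of plasma and tissue proteins that marks targets for uptake and signals to leukocytes. The C1q molecule opens the classical pathway, C3 is the central component on which all pathways meet, factor B and properdin build and stabilise the alternative pathway convertase, and the fragments C3a and C5a act on receptors of myeloid cells. Macrophages make several of these proteins themselves and carry the receptors. The 8 genes described here are C1qa, C1qb and C1qc (the chains of C1q), Cfp (properdin), Cfb (factor B), C3, C3ar1 (the C3a receptor) and C5ar1 (the C5a receptor). They were taken by name and matched by gene identifier, 8 of 21761 genes with exon counts. All 8 were among the 13884 genes that passed the filter on low counts.

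The cells were bone marrow-derived macrophages of FVB/Hsd mice at day 7 of differentiation, untreated, grown in medium with L929-conditioned supernatant. All carried a retroviral hairpin and had been selected with puromycin. The control group had a scrambled hairpin (2 libraries, scrambled 1 and 2). The knockdown group had a hairpin against Wdr82, with 1 library for sh1137 and 1 for sh830, so any difference between the hairpins is part of that group's SD. Wdr82 encodes a subunit of SET1 histone methyltransferase and PP1 phosphatase complexes. The RNA was total RNA depleted of ribosomal RNA. Of 14 samples in the series, the other 10 (lipopolysaccharide-treated, 4-thiouridine-labelled or Menin hairpin samples) were not analysed here. The labels do not say whether libraries came from separate animals or cultures, so differences between libraries of a group may be technical.

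Exon counts of genes lay between 34787556 and 43372731 per library. Introns took 40.4% and 44.2% of exon plus intron counts in scrambled 1 and sh1137, but 14.6% and 15.2% in scrambled 2 and sh830. A term for that split, the library term, was therefore kept in the fit, and "rose" and "fell" mean an adjusted p under 0.05 in that fit. Its p-values rest on how far sh1137 over scrambled 1 and sh830 over scrambled 2 disagree, not on the spread within groups. The size of that disagreement is also borrowed from all genes in edgeR, so a gene's own pairs do not set its p-value alone. A difference between the hairpins cannot be told apart in this fit from one between these pairs of libraries. Wdr82 had 122 ± 31.0 exon counts per 1e6 library counts (CPM) in the scrambled libraries and 32.9 ± 11.1 CPM in the knockdown libraries (SD, n = 2 each). Its log2 fold change was -1.91 ± 0.094 (edgeR adjusted p = 0.0022). Summed macrophage markers, per kilobase of exon (RPKM), were 5501 and 7453 in scrambled 1 and 2, 4509 in sh1137 and 9773 in sh830, and 2 of the 8 (Cd68 and Fcgr1) fell. Summed endothelial markers were 5.49 and 4.48 RPKM in scrambled 1 and 2, 12.3 in sh1137 and 7.03 in sh830; Pecam1 (2.87) and Cdh5 (2.99) rose, Kdr did not pass and Tek was not tested. Summed megakaryocyte markers were 2.29 and 1.22 RPKM, then 10.4 and 7.41 RPKM; of 4, Ppbp rose (3.48). The adjusted p-values of these 3 genes were 0.0054 to 0.0069 in edgeR, and the part of such cells in the results below was not tested. In bulk RNA, fewer cells of a type and less RNA per cell cannot be told apart.

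The C1q genes, C3 and C3ar1 carry the differences described next, so the RefSeq windows around the starts of those in the promoter table are shown. Each window runs from 250 bases before to 50 bases after the annotated start, 5′ to 3′ on the gene's strand, in the GRCm38.p6 build. The counts used mm9, so these positions are not comparable with the gene positions given below. Of the 8 genes, 6 had a window; C1qa and Cfb had none. Capitals mark matches, on either strand, to the motifs described after the sequences. The windows are C1qb (chr4:136886151-136886450, minus strand), C1qc (chr4:136892865-136893164, minus strand), C3 (chr17:57228087-57228386, minus strand) and C3ar1 (chr6:122856108-122856407, minus strand).
C1qb: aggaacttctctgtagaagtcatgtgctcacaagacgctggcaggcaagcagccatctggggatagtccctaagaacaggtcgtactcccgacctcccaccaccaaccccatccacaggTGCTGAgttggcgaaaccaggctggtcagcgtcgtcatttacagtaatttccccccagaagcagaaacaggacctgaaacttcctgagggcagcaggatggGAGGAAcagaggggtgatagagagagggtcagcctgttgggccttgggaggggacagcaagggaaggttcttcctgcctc
C1qc: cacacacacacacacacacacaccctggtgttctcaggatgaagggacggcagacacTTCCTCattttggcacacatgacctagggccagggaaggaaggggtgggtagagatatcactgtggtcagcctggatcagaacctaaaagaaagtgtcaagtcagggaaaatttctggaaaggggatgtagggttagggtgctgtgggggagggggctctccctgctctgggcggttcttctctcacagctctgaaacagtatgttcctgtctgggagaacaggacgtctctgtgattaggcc
C3: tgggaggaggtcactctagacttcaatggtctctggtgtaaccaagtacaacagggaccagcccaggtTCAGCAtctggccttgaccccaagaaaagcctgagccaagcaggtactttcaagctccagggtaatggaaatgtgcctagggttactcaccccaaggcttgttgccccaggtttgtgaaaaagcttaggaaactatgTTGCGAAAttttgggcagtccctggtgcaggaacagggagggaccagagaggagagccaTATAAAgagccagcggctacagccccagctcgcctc
C3ar1: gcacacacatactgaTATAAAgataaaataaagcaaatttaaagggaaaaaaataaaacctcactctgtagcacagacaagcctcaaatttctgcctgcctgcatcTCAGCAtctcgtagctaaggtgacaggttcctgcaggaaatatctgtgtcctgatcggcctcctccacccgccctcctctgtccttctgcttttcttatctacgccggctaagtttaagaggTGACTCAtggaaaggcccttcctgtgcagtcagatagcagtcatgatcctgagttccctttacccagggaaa

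The letters searched were TATAAA (the core of a TATA box), TTGCGNAA (C/EBP), TGANTCA (AP-1), GAGGAA (an ETS core), TGCTGA (a MAF core), TTCNNNGAA (GAS) and CACGTG (E-box), on both strands, with an interferon-stimulated response element and an NF-kB motif beside them. C3 held the C/EBP letters at -45 from the start, which 0.797% of 32851 RefSeq windows of this length hold, and TATAAA at +15 (13.6% of windows). C3ar1 held the AP-1 letters at -22 (7.81% of windows), and TATAAA at -235. The ETS letters were in C1qb at -30 and in C1qc at -193 on the opposite strand, and at 2 places in Cfp (28.3% of windows). TGCTGA was in C1qb, C3, C3ar1 and C5ar1 (19.5% of windows). The interferon-stimulated response element, GAS, NF-kB and E-box letters were in none of the 6 windows (3.44%, 8.3%, 0.411% and 7.15% of all windows). The motifs were chosen after the windows had been read, and a match is a description of letters only.

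The chains of C1q all fell, C3 rose and C3ar1 fell, while Cfp, Cfb and C5ar1 did not pass the test. Counted over the 8 genes, 1 rose and 4 fell with the library term in edgeR, where 13.8% of all 13884 tested genes were called (6.06% higher and 7.79% lower). The median log2 fold change was -0.43 over the 8 genes and -0.01 over all tested genes. The CPM ranges of the groups did not overlap for these 5 genes, as for 31.3% of all tested genes. Without the library term edgeR called 0 of the 8 and 0 of all 13884 genes; at an unadjusted p under 0.05 it had 437 genes higher and 209 lower. DESeq2 without that term called 147 genes higher (1.06%) and 23 lower (0.166%), with C3 among the former and C3ar1 among the latter. The smallest p that exact permutation can give with 2 libraries a group is 0.333, so no such test was used.

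**Figure D1:**
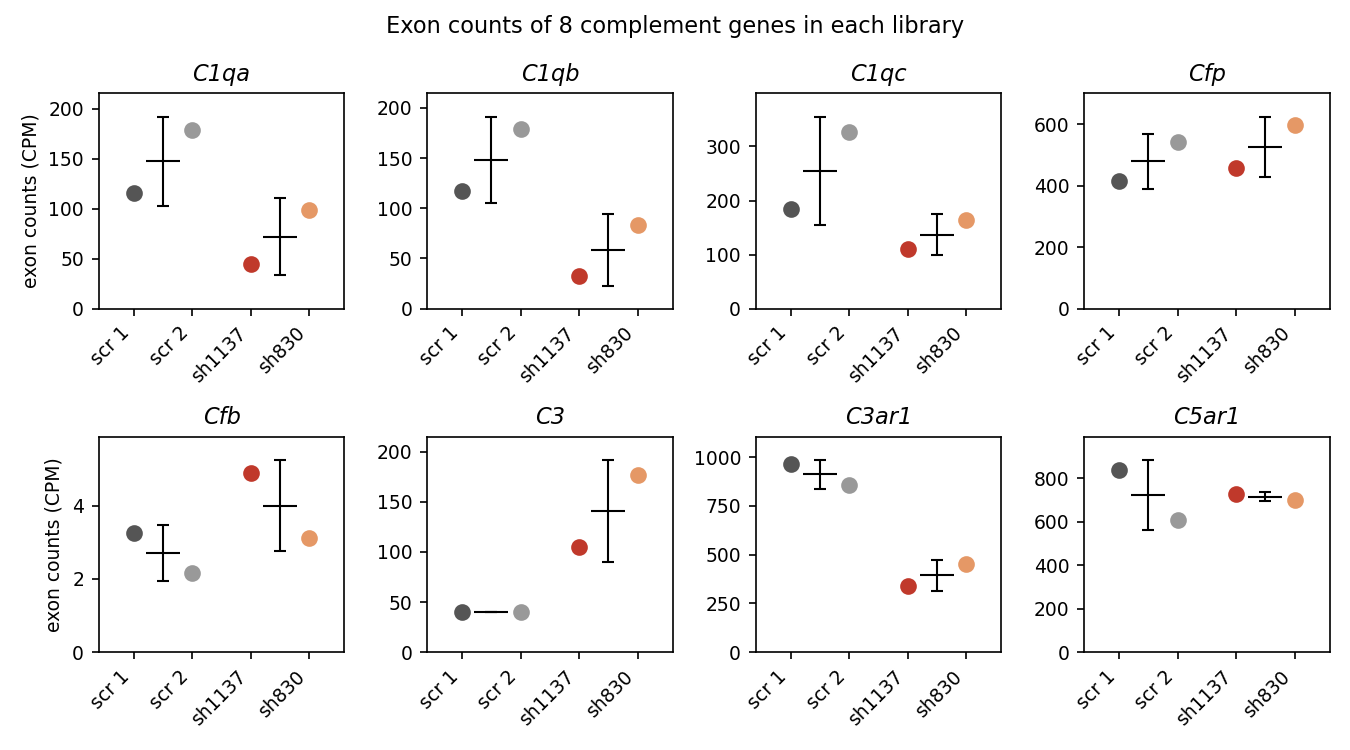
Exon counts of each gene in CPM (vertical axes, each from 0) in scrambled 1, scrambled 2, sh1137 and sh830, 1 point per library, with the group mean and SD as a bar and whiskers. Both knockdown points lie below both scrambled points for C1qa, C1qb, C1qc and C3ar1 and above them for C3, and the groups overlap for Cfp, Cfb and C5ar1.

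In scrambled cells, per kilobase of exon, Cfp was the highest of the 8 (315 ± 58.9 RPKM; SD, n = 2), followed by C5ar1 (281 ± 62.8), C1qc (242 ± 94.9), C3ar1 (212 ± 17.2), C1qb (140 ± 40.7), C1qa (137 ± 41.3), C3 (7.81 ± 0.0913) and Cfb (0.985 ± 0.282). Neighbours in this order overlapped in their library values from Cfp down to C3ar1 and between C1qb and C1qa. C3ar1, C3 and Cfb were each separated from the gene above or below them in this order: both C3ar1 values were above both C1qb values, and C3 lay below both C1q genes and above Cfb in every library. By rank among the 13884 tested genes, Cfp stood at 162, C5ar1 at 188, C1qc at 218 and C3ar1 at 249. C3 was at rank 6803 and Cfb at 10697. In the knockdown libraries C3 stood at rank 2434 and C1qb, at 397 in scrambled cells, at 1075. The 8 genes together took 0.273% and 0.256% of exon counts in scrambled 1 and 2, 0.196% in sh1137 and 0.221% in sh830.

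The C1q genes sit next to each other on the minus strand of mm9 chromosome 4: C1qa (identifier 12259; 136451831 to 136454759), then C1qc (12262; 136445717 to 136448829) after 3001 bp, then C1qb (12260; 136436061 to 136442092) after 3624 bp. Each encodes one chain of the C1q molecule, which binds immune complexes and dying cells. Exons of C1qa had 116 and 179 CPM in the scrambled libraries, 44.9 CPM in sh1137 and 99.3 CPM in sh830. C1qb had 118 and 179 CPM in the scrambled libraries, and 33.0 and 83.8 CPM in sh1137 and sh830. C1qc had 185 and 326 CPM, and 111 and 163 CPM. On the CPM scale, scrambled 2 was the highest library and sh1137 the lowest for all chains. Within each group the intron-poor library was above the intron-rich one on that scale. With RPKM scaled to the same sum in every library (TPM), this order held for C1qa and C1qb but not fully for C1qc. C1qc had 534 and 655 TPM in scrambled 1 and 2, 351.8 TPM in sh1137 and 350.8 TPM in sh830. The scrambled libraries were also closer in TPM, at 327 and 351 for C1qa and 338 and 357 for C1qb.

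C1qa fell, with a log2 fold change of -1.11 ± 0.14 (adjusted p = 0.0131 by edgeR with the library term), from 148 ± 44.7 to 72.1 ± 38.4 CPM (SD, n = 2 each). C1qb fell by 1.46 ± 0.18 (adjusted p = 0.0131 in edgeR), from 148 ± 43.2 to 58.4 ± 35.9 CPM. C1qc fell by 0.87 ± 0.10 (adjusted p = 0.0113 in edgeR), from 255 ± 100.0 to 137 ± 37.3 CPM. Compared within the intron-rich and the intron-poor pair, C1qb was 3.57-fold lower in sh1137 than in scrambled 1 and 2.13-fold lower in sh830 than in scrambled 2. The same folds were 2.59 and 1.81 for C1qa and 1.67 and 2.00 for C1qc, each pair being 1 library against 1 and so without a test. In CPM, scrambled 2 itself was 1.54-fold (C1qa), 1.52-fold (C1qb) and 1.77-fold (C1qc) above scrambled 1. The adjusted p-values with the group term alone were 0.766, 0.701 and 0.748 in edgeR and 0.469, 0.207 and 0.495 in DESeq2. Libraries left out one at a time, with the group term alone, moved the C1qa value to -0.66 without scrambled 2, -0.58 without sh1137 and -1.71 without sh830. They moved C1qb to -0.83 without sh1137 and C1qc to -0.40 without scrambled 2, and edgeR called C1qb without scrambled 1 (-1.62, adjusted p = 0.0448) and when sh830 was left out (-2.16, adjusted p = 0.013).

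The balance between the chains also differed between libraries. Of the summed C1q RPKM, C1qc made up 44.5% and 48.1% in scrambled 1 and 2, 59.1% in sh1137 and 47.6% in sh830. C1qb made up 28.2% and 26.2%, then 17.5% and 24.3%. The sh1137 library stood apart from the other 3 in both shares, while sh830 was near the scrambled libraries. The summed C1q level was 393 and 643 RPKM in scrambled 1 and 2, 178 RPKM in sh1137 and 326 RPKM in sh830, so the knockdown libraries were below both scrambled libraries in the sum.

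**Figure D2:**
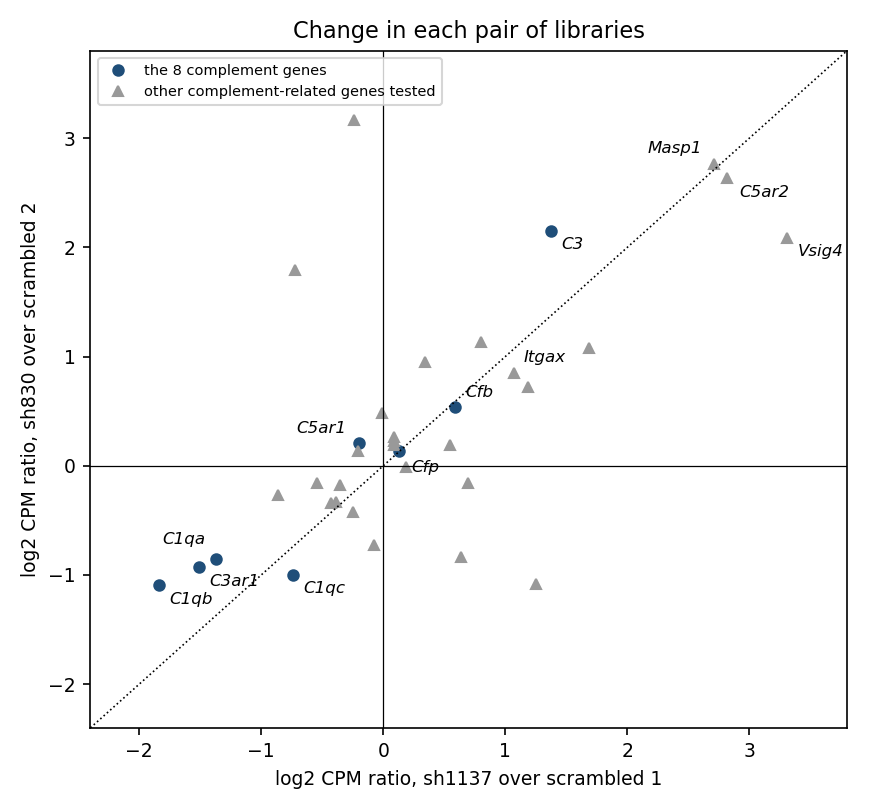
Log2 CPM ratio of sh1137 over scrambled 1 (horizontal axis) against that of sh830 over scrambled 2 (vertical axis) for the 8 genes (circles) and for other complement-related genes tested (triangles), with equal change on the dotted line. C3 is above 0 and the C1q genes and C3ar1 are below 0 on both axes, and C5ar1 is at -0.20 and 0.21.

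In introns the C1q genes had few reads, 29 to 275 counts per library and gene. C1qb introns held 275 and 154 counts in scrambled 1 and 2, 95 in sh1137 and 68 in sh830. Scaled to intron library size these were 11.6 and 18.9 CPM against 3.94 and 7.48 CPM, with no overlap between the groups (31.2% of all genes tested in introns had none), and the intron level of C1qb fell by 1.45 ± 0.20 (adjusted p = 0.0108 in edgeR). The intron log2 fold changes of C1qa (-0.97 ± 0.35, adjusted p = 0.135 in edgeR) and C1qc (-0.99 ± 0.26, adjusted p = 0.0597 in edgeR) did not pass. Without scrambled 2 the C1qc intron value was 0.16, and without sh1137 it was -0.0027, with the group term alone.

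Properdin and factor B, the alternative pathway genes, did not pass. Cfp (18636; chromosome X, 20502661 to 20508650, minus strand) stabilises the convertase and had 417 and 544 CPM in scrambled 1 and 2, 456 CPM in sh1137 and 596 CPM in sh830. The values alternated between the groups, and the log2 fold change was 0.13 ± 0.092 (adjusted p = 0.361 in edgeR). Within both pairs the ratio was 1.10-fold (1.095 and 1.097). Cfb (14962; chromosome 17, 34993319 to 34999459, minus strand) encodes the protease subunit of that convertase and had 133 and 86 exon counts in scrambled 1 and 2, 183 in sh1137 and 132 in sh830. On the CPM scale these were 3.25, 2.16, 4.88 and 3.13, in sh830 between the scrambled libraries, and the log2 fold change was 0.56 ± 0.26 (adjusted p = 0.191 in edgeR).

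Cfb differed from the other 7 genes in how its reads lay. Its introns held 76, 57, 140 and 131 counts in scrambled 1, scrambled 2, sh1137 and sh830, and reads per kilobase of intron were 46.2%, 53.6%, 61.9% and 80.3% of those per kilobase of exon. The other 7 genes were between 0.307% and 4.34%. Over all genes with both kinds of count the median was 10.0%, 3.47%, 11.7% and 3.65% in the same libraries, and only 3.79%, 1.97%, 2.30% and 0.799% of genes were above Cfb. The intron log2 fold change of Cfb was 0.95 ± 0.23 (adjusted p = 0.0506 in edgeR), the intron groups overlapped, and the test of its intron against its exon change gave 0.35 (adjusted p = 0.688 in edgeR). C2, whose end lies 87 bp upstream of Cfb on the same strand, had 8, 9, 17 and 8 exon counts and was not tested.

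C3 was the member that rose. C3 (12266; chromosome 17, 57343396 to 57367559, minus strand), whose protein is cleaved to the opsonin C3b and the anaphylatoxin C3a, had 40.4 and 39.7 CPM in scrambled 1 and 2. It had 105 CPM in sh1137 and 177 CPM in sh830, and the groups did not overlap. C3 rose by 1.76 ± 0.19 (adjusted p = 0.01 by edgeR with the library term), from 40.1 ± 0.469 to 141 ± 51.1 CPM (SD, n = 2 each). It was 2.59-fold higher in sh1137 than in scrambled 1 and 4.45-fold higher in sh830 than in scrambled 2. With the group term alone the adjusted p was 0.418 in edgeR and 0.000533 in DESeq2, and in edgeR it passed without sh1137 (2.13, adjusted p = 0.00063) but not without the other 3 libraries in turn (1.40 to 1.82, adjusted p from 0.051 to 0.211).

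Stromal cells and hepatocytes also make C3, so their markers are given beside it. The summed level of 6 stromal markers was 0.133 and 4.66 RPKM in scrambled 1 and 2, 0.301 RPKM in sh1137 and 18.6 RPKM in sh830; Col1a1 had 4, 369, 29 and 2248 counts and Lum at most 2. The sums were higher in the knockdown library of each pair, and higher in scrambled 2 than in sh1137. Of 5 stromal markers tested, 1 rose and 0 fell in edgeR (median 0.92), where 6.06% of all tested genes rose. At an unadjusted p under 0.05 in edgeR, 3 were higher and 0 lower, where 14.1% of all tested genes were higher. C3 had 40.4 and 39.7 CPM in scrambled 1 and 2, 105 CPM in sh1137 and 177 CPM in sh830. The part of stromal RNA in either ratio of C3 was not tested. Summed hepatocyte markers were between 0.0122 and 0.214 RPKM, with Alb and Fgb at 0 counts in all 4 libraries.

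C3 introns held 49 and 40 counts in scrambled 1 and 2, 148 in sh1137 and 85 in sh830. The intron level rose by 1.27 ± 0.29 (adjusted p = 0.0442 by edgeR with the library term), and the intron groups did not overlap. This call did not hold in DESeq2 with the library term (1.23, adjusted p = 0.108), and with the group term alone the value was 1.18 (adjusted p = 0.986 in edgeR) and 0.67 without scrambled 1. Scaled to intron library size, C3 introns had 2.07 and 4.90 CPM in the scrambled libraries and 6.14 and 9.35 CPM in sh1137 and sh830.

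The anaphylatoxin receptors differed from each other. C3ar1 (12267; chromosome 6, 122797158 to 122806175, minus strand) had 964 and 859 CPM in scrambled 1 and 2, 339 CPM in sh1137 and 452 CPM in sh830. Both knockdown libraries were below both scrambled libraries. C3ar1 fell by 1.22 ± 0.16 (adjusted p = 0.0141 by edgeR with the library term), from 912 ± 73.8 to 395 ± 79.9 CPM (SD, n = 2 each). It was 2.84-fold lower in sh1137 than in scrambled 1 and 1.90-fold lower in sh830 than in scrambled 2. With the group term alone the adjusted p was 0.481 in edgeR and 0.0113 in DESeq2, and edgeR did not call it with any 1 library left out (-1.41 to -1.02).

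C5ar1 (12273; chromosome 7, 16832092 to 16844889, minus strand) had 835 and 607 CPM in scrambled 1 and 2, 728 CPM in sh1137 and 700 CPM in sh830. Both knockdown values lay between the scrambled ones, and the log2 fold change was 0.0046 ± 0.13 (adjusted p = 0.985 in edgeR). The RPKM of C3ar1 was 0.690 and 0.847 of that of C5ar1 in scrambled 1 and 2, and 0.278 and 0.386 of it in sh1137 and sh830. C3ar1 was 28.5-fold and 25.8-fold above C3 in RPKM in the scrambled libraries, and 3.87-fold and 3.05-fold above it in sh1137 and sh830.

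C3ar1 introns held 1374 and 634 counts in scrambled 1 and 2, 516 in sh1137 and 292 in sh830. In intron CPM these were 58.0 and 77.6 against 21.4 and 32.1, and the intron level fell by 1.36 ± 0.11 (adjusted p = 0.0024 in edgeR). In the group term alone fit the adjusted p was 0.474, but edgeR called it without scrambled 1 (-1.52, adjusted p = 0.0388) and when sh830 was left out (-1.67, adjusted p = 0.00756). C5ar1 introns had -0.20 (adjusted p = 0.203 in edgeR), with 3942, 1032, 3480 and 1006 counts.

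**Figure D3:**
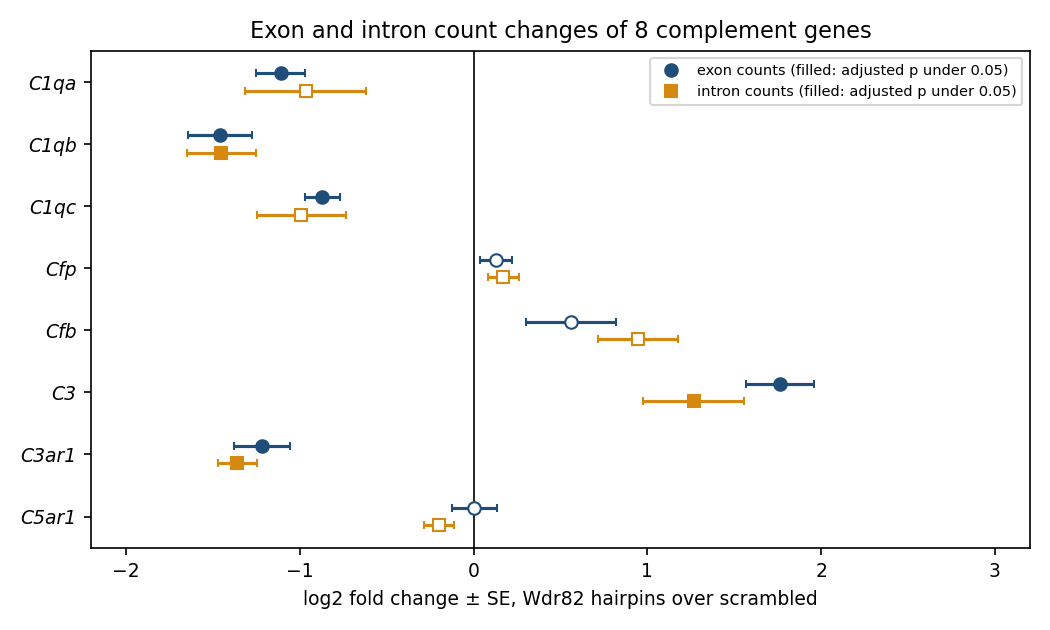
Log2 fold change of knockdown over scrambled libraries with its standard error for exon counts (circles) and intron counts (squares) of the 8 genes, from edgeR with the library term; filled symbols have an adjusted p under 0.05. Exon and intron values of a gene lie on the same side of 0 except for C5ar1, whose exon value is 0.0046.

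Over introns, 1 of the 8 genes rose (C3) and 2 fell (C1qb and C3ar1), where 9.9% of 12405 genes tested in introns were called (5.97% higher, 3.93% lower). Whether intron and exon counts of a gene moved by different amounts was tested directly, and 0 of the 8 genes passed in edgeR, against 4.54% of 11772 genes (2.1% with introns higher, 2.44% with introns lower). At an unadjusted p under 0.05, 2 of the 8 had a difference, C3 (-0.44, edgeR adjusted p = 0.285) and C5ar1 (-0.22, edgeR adjusted p = 0.250), where 16.4% of all genes tested had one. The values for the others ran from -0.15 (C3ar1) to 0.35 (Cfb). For comparison, Wdr82 gave 1.54 (adjusted p = 7.2e-33 in edgeR) in the same test.

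Beside C5ar1, Cfp and C3ar1, none of which rose, 3 neighbouring genes rose, where 6.06% of all tested genes rose. The tested neighbours that did not pass are named below with their values. C5ar2, the second C5a receptor, starts 2588 bp past the end of C5ar1 on the same strand (chromosome 7, 16819934 to 16829503). It had 683 and 438 counts in scrambled 1 and 2, 4400 in sh1137 and 2875 in sh830, and rose by 2.72 ± 0.10 (adjusted p = 0.0020 in edgeR) from 13.8 ± 4.04 to 92.8 ± 34.9 CPM. Its introns held 149, 78, 1305 and 426 counts and rose by 2.75 (adjusted p = 0.0017 in edgeR). C5ar1, next to it, had a log2 fold change of 0.0046. C5ar2 also passed with the group term alone in DESeq2 (2.74, adjusted p = 2.7e-07) and in edgeR without scrambled 1, sh1137 or sh830, but not with all 4 libraries (adjusted p = 0.414) or without scrambled 2 (2.51, adjusted p = 0.0551).

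Past the end of Cfp the pattern was similar. Syn1, which encodes the neuronal vesicle protein synapsin I, lies 4616 bp downstream on the same strand and had 223 and 81 counts in scrambled 1 and 2, 1508 in sh1137 and 418 in sh830. The groups did not overlap, Syn1 rose by 2.61 ± 0.20 (adjusted p = 0.0054 in edgeR), and its introns rose by 2.40 (adjusted p = 0.0017 in edgeR). Without sh1137 the exon value of Syn1 was 1.40 (adjusted p = 0.521 in edgeR, group term alone). The transcription factor gene Foxj2, which ends 1773 bp from the end of C3ar1 on the opposite strand, rose by 0.96 ± 0.082 (adjusted p = 0.0064 in edgeR), with 2867, 2269, 5086 and 4697 counts. It did not pass with the group term alone (adjusted p = 0.494 in edgeR and 0.122 in DESeq2). The sample titles call the libraries stranded, but counting by strand is not stated in the sources used here, so reads of convergent genes could be shared. The same limit holds for Cfb and its convergent neighbour Nelfe. Nelfe had 1120 and 1630 counts in scrambled 1 and 2, 1106 in sh1137 and 1680 in sh830, far more than Cfb.

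The C1q genes are neighbours of each other on the same strand, and all fell. C1qc (-0.87) lies downstream of C1qa (-1.11), and C1qb (-1.46) downstream of C1qc. The other tested neighbours, outside the 8 genes, did not pass: Tnfsf14 downstream of C3 (-0.16, adjusted p = 0.543), Gpr108 upstream of C3 (0.26, 0.088), Necap1 upstream of C3ar1 (0.23, 0.345), Inafm1 upstream of C5ar1 (0.62, 0.0805), Elk1 upstream of Cfp (0.34, 0.0645), Nelfe 1 bp past the end of Cfb on the opposite strand (0.03, 0.840) and Ephb2 past C1qb (0.11, 0.889), all adjusted p in edgeR. Among all 1580 tested genes that start within 5 kb past the end of another tested gene on the same strand, 82 rose (5.19%) and 151 fell (9.56%), with a median log2 fold change of -0.03. That count was added after the values of C5ar2 and Syn1 had been seen. Over all tested genes 6.06% rose.

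**Figure D4:**
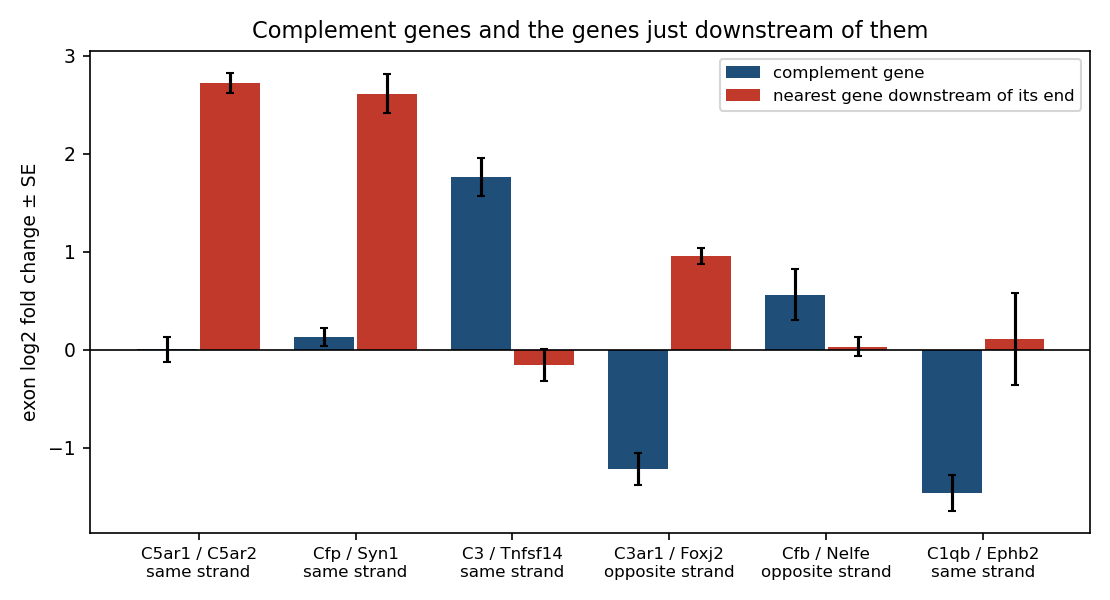
Exon log2 fold change with its standard error (edgeR with the library term) for 6 of the 8 genes and for the nearest gene past the end of each, labelled by relative strand. C1qa and C1qc are not shown, since the nearest gene past the end of each is another C1q gene. C5ar2 (2.72) and Syn1 (2.61) are far above C5ar1 (0.0046) and Cfp (0.13), and Foxj2 (0.96) rose next to C3ar1 (-1.22).

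Upstream of C3ar1 the authors' annotation has regions outside genes, chosen by them in a comparison of hairpin with vector cells, so their direction is not independent. The region named for the start of C3ar1 (chromosome 6, 122811500 to 122814999, starting 5324 bp before the gene) had 7 and 14 counts in scrambled 1 and 2, 142 in sh1137 and 34 in sh830. Its log2 fold change was 2.79 ± 0.84 (adjusted p = 0.0769 in edgeR). The region named for Necap1 (122819000 to 122824499, 12824 bp upstream of C3ar1) held 19, 82, 453 and 297 counts and rose by 3.05 ± 0.70 (adjusted p = 0.0425 in edgeR; 0.0665 with another size factor). C3ar1 itself fell, so region and gene differed in direction.

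Of the other complement components, 22 of 23 listed genes were matched and 8 were tested, of which 1 rose and 0 fell in edgeR, with a median log2 fold change of 0.37 (by unadjusted p under 0.05, 2 were higher and 0 lower; DESeq2 with the library term called 1 and 0). Masp1, a protease of the lectin pathway, had 8 and 34 counts in scrambled 1 and 2, 48 in sh1137 and 245 in sh830, and rose by 2.74 ± 0.35 (adjusted p = 0.0133 in edgeR). Its value was 1.28 without sh830, with the group term alone, and the library with the most Masp1 counts was also the one with the highest stromal marker sum; their relation was not tested. The components with the highest RPKM were Fcna (ficolin A, 0.26), C1ra (a C1 protease, -0.03) and C8g (1.37, adjusted p = 0.0748 in edgeR), and none of these passed.

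Among 15 other receptors for complement or C1q, 14 were tested, 3 rose and 0 fell in edgeR (median 0.02). At an unadjusted p under 0.05, 3 were higher and 4 lower, and DESeq2 with the library term also called 3 higher and 4 lower, the latter Cd93, Calr, Lrp1 and Lair1. Over all 13884 genes the same shares were 14.1% and 18.2% by unadjusted p and 5.28% and 7.38% in DESeq2. Beside C5ar2 these were Itgax, the alpha chain of complement receptor 4, and Vsig4, a macrophage receptor for C3b and iC3b. Itgax had 315 and 228 counts in scrambled 1 and 2, 605 in sh1137 and 436 in sh830, and rose by 0.96 ± 0.17 (adjusted p = 0.0244 in edgeR); without sh1137 the value was 0.61. Vsig4 had 29 and 4 counts, then 263 and 18, so that sh830 lay below scrambled 1. Its rise of 2.97 ± 0.46 (adjusted p = 0.0191 in edgeR) did not hold with the group term alone (adjusted p = 0.823 in edgeR), and the value was 0.07 without sh1137. The receptors with the highest RPKM, Calr (-0.36), Lrp1 (-0.35) and Itgb2 (0.16), did not pass.

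Of 16 complement regulators, 5 were tested and 0 passed in edgeR, with 0 at an unadjusted p under 0.05 and 0 in DESeq2 with the library term (median 0.24). Among the most highly expressed were the membrane attack complex inhibitors Cd59a (0.24) and Cd59b (0.09). The 21 inflammatory genes and 21 macrophage maturation genes listed for context went both ways. Of 18 inflammatory genes tested, 4 rose and 2 fell (median 0.46): Acod1 (1.16), Cxcl1 (1.57) and Ptgs2 (2.18, but -0.02 without sh830) rose, and the chemokine genes Ccl2 (-0.94) and Cxcl10 (-1.22) fell. Of 20 maturation genes tested, 2 rose (Ms4a7, 0.74, and Apoc1, 2.92) and 3 fell (median 0.01), with 3 higher and 5 lower by unadjusted p. The genes that fell were Aif1 (-1.17), the fractalkine receptor gene Cx3cr1 (-1.49) and the adaptor gene Tyrobp (-0.52, but 0.22 without scrambled 2). The adjusted p-values of the genes named in these lists lay between 0.0099 and 0.0439 in edgeR. With RLE size factors Ptgs2 (0.053), Cxcl10 (0.0542) and Apoc1 (0.0558) did not pass, and Apoc1 did not in DESeq2 with the library term (adjusted p = 0.114).

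Likeness of profile was measured as the root mean square difference of centred log2 CPM over the 4 libraries, among genes with a mean of at least 10 CPM. For C1qa the nearest genes were Pdzd11 (0.031), Lsp1 (0.052) and Taf10 (0.055), and for C1qb they were Akr1c13 (0.084), C1qa (0.190) and Clec12a (0.193). For C1qc they were Ccnb2 (0.052), Gcat (0.056) and Ccnb1 (0.056). Among the chains, C1qa differed from C1qb by 0.190 and from C1qc by 0.249, and C1qb from C1qc by 0.414. Each chain was compared with 8961 genes over only 4 libraries, and no chance level was worked out. Near profiles can therefore arise between unrelated genes, and the order of the nearest genes shows no relation between them. C3ar1 was nearest to the chemokine receptor gene Ccr2 (0.078), Sh2d3c (0.084) and Gm11545 (0.107). For C3 the nearest were Tbc1d30 (0.203), Agmo (0.232) and Ndnf (0.246). The measure is not scaled for the size of a change, so distances are not comparable between genes with large and small changes. The nearest were Esf1 (0.0039), Ppp1r13b (0.024) and Daam1 (0.026) for C5ar1, Twsg1 (0.013), Rbm43 (0.018) and Asah1 (0.019) for Cfp, and Emp2 (0.028), Tsc22d1 (0.045) and Zscan29 (0.053) for Cfb.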

How the data were processed

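Read counts over exon and over intron intervals of genes were deposited for 4 untreated total RNA libraries, as raw counts with no normalization (read from the values). Per the submitters' processing notes, SICER, Cuffdiff 2.1.1, Cufflinks 2.1.1 and TopHat 1.3.1 were used with mm9; the counting tool and its use of strand are not given in the sources used here. Other deposited data are mm9 coordinates of genes and regions, per the file headers. Identifiers were matched to symbols (21615 of 21761).

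Genes and regions were fitted on their exon counts in edgeR 4.0.16 (under R 4.3.3), with TMM factors taken from genes, the filterByExpr filter, a group term and a term for the split of libraries by intron share, which leaves 1 residual degree of freedom. The split is measured, not a label. P-values are from quasi-likelihood tests with Benjamini-Hochberg adjustment over all genes and regions tested, with a threshold of 0.05. Introns were fitted alike with their own factors, and intron against exon change as the interaction of group and interval type. DESeq2 1.42.0 was an alternative. CPM are exon counts per 1e6 library counts, scaled by TMM; RPKM divides them by the union of exons. Scripts were tested on simulated data. The 8 members and all lists were chosen with earlier results of these data known. The naming rule took all members, Wdr82, called genes and the 3 most expressed of each complement list, the 3 smallest p-values in each direction of the context lists, adjacent genes, regions within 20 kb and the 3 likest profiles; 1 gene it took is not reported here. Marker lists for neutrophils, dendritic, B, T and NK, mast and erythroid cells had summed levels of 6.93 to 19.2, 1.17 to 2.39, 0.211 to 0.591, 0.284 to 1.21, 0.0271 to 3.32 and 0.728 to 4.54 RPKM over the 4 libraries. The mast cell sum was 3.32 RPKM in sh830 and at most 0.068 RPKM elsewhere. Erythroid sums were 3.89 and 4.54 RPKM in scrambled 1 and sh1137, and 0.728 and 0.748 RPKM in scrambled 2 and sh830. Of 6 dendritic cell markers tested, 1 rose in edgeR, where 6.06% of all tested genes rose.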

Additional observations from a re-analysis of the deposited data

Results flagged for a closer look

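The exon counts of C5ar1 moved in opposite directions in the pairs of libraries: the log2 CPM ratio was -0.20 in the intron-rich pair (sh1137 over scrambled 1) and 0.21 in the intron-poor pair (sh830 over scrambled 2). Each is 1 library against 1, and the difference was not tested.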

How the results depend on the processing

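The fit with the library term has 1 residual degree of freedom, and without it edgeR called no member on all 4 libraries. With the group term alone edgeR called 0 genes higher and 0 lower over exons and 0 and 0 over introns, and 0 members in either direction over either. DESeq2 with the group term alone called 147 genes higher and 23 lower over exons, with 1 member higher (C3) and 1 lower (C3ar1). Over introns that fit called 157 genes higher and 8 lower, with 0 members higher and 0 lower. Over introns, DESeq2 with the library term called 0 members higher; RLE size factors called 915 genes lower and 2 members higher; with no filter on low counts 1233 genes were higher, 1133 lower and 2 members higher. Without the split by interval type, 0 genes were called higher and 0 lower for intron against exon change. With 1 library left out and the group term alone, where a lone sample is assumed to vary like the other group, exon calls ran from 13 to 190 higher and 1 to 28 lower, and intron calls from 5 to 211 higher and 0 to 42 lower. Members called ran from 0 to 1 higher and 0 to 1 lower over exons, and 0 higher and 0 to 2 lower over introns. No paired analysis was possible because the knockdown labels carry no replicate numbers to pair libraries by; the library term sets scrambled 1 with sh1137 and scrambled 2 with sh830, as a block would, but by their measured intron share.

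The exon values of C1qa, C1qb, C1qc, C3, C3ar1 and Cfb kept their direction under every alternative run. C5ar1 was -0.013 with the group term alone, -0.0096 and -0.024 in DESeq2 with the library term and without it, -0.0043 with no filter, and -0.20 to 0.22 with a library left out. Ephb2 was -0.017 with the group term alone, -0.015 in DESeq2 and -0.78 to 1.28 with a library left out. Ranges with a library left out that crossed 0 were -0.066 to 0.36 for Cfp, -0.19 to 0.73 for Fcna, -0.12 to 0.046 for C1ra, -1.16 to 0.54 for Lrp1, -0.24 to 0.68 for Cd59a, -0.74 to 0.83 for Cd59b, -0.019 to 3.83 for Ptgs2, -1.31 to 0.22 for Tyrobp, -0.76 to 0.40 for Tnfsf14, -0.032 to 0.49 for Necap1 and -0.25 to 0.37 for Nelfe. For introns they were -2.38 to 0.16 for C1qc, -0.39 to 0.026 for C5ar1 and -0.68 to 0.031 for Wdr82. The intron against exon value of C1qb was -0.0065 without the split by interval type. The cause of these changes was not tested. Depth limits the introns of C1qa, C1qb, C1qc, C3 and Cfb, and the exons of Cfb.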
